A study of Mus musculus with 18 samples.

Results

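Whole-brain input RNA and RNA of a ribosome pull-down directed at microglia were compared in mice given lipopolysaccharide (LPS). The 10 reactive astrocyte genes described here were Lcn2, Serpina3n, Gfap, Vim, Osmr, S1pr3, Cd44, Cd109, Steap4 and Hspb1. They were chosen by gene symbol, as 10 of the 36172 genes of the deposited expression matrix, and all 10 were among the 14796 genes that passed the filter on low counts, which asked for over 20 normalised counts in every library of at least 1 group. Steap4 passed through the LPS groups alone, as did 306 of all tested genes, so that a higher level after LPS was fixed for it by the filter. The animals were Cx3cr1-Cre/Ert2+; NuTRAP+ mice of both sexes, in which the Cx3cr1 promoter drives a tamoxifen-inducible Cre that switches on a GFP-tagged ribosomal protein. Every animal, controls included, received tamoxifen on 5 consecutive days at about 3 months of age. After a further 3 to 4 weeks, each received either phosphate-buffered saline (PBS; 4 animals, numbered 268, 272, 273 and 506) or 5 mg/kg LPS (5 animals, numbered 266, 267, 270, 271 and 507) into the peritoneum, and brains were taken 24 hours later. Each homogenate gave an Input library, the cleared homogenate of hemisected brain, and a Positive library, the RNA that came down with antibody to GFP (translating ribosome affinity purification, TRAP). This made 18 libraries in 4 groups.

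Astrocytes that respond to injury or inflammation are called reactive. They enlarge their intermediate filament skeleton, secrete acute-phase proteins, and display cytokine receptors and adhesion molecules that resting astrocytes carry at low levels. Oncostatin M and related cytokines, which signal through the shared receptor subunit gp130 to JAK kinases and STAT transcription factors, are among the known inducers of this state. Most of these genes are not confined to astrocytes: Lcn2 is also made by neutrophils and endothelial cells, Cd44 by leukocytes including microglia, and Vim by vascular cells.

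The 17 libraries used held 22968939 to 35123345 estimated counts each, so that a floor of 3 counts was 8.54e-06% to 1.31e-05% of a library. The Input library of animal 271 held 1252 counts over 582 genes and was left out, which leaves 4 Input libraries of LPS animals beside 5 Positive ones. The pull-down was checked against marker lists. All 15 microglia markers were higher in the Positive than the Input fraction in both treatments, with a median log2 ratio of 4.29 in PBS animals and 4.09 in LPS animals. The 18 homeostatic astrocyte markers were all detected in every group, with a median log2 ratio of -0.38 in PBS animals (2 higher, 9 lower) and -0.61 in LPS animals (1 higher, 12 lower). Their summed normalised counts were 260870 to 269913 in Input PBS, 232570 to 251783 in Input LPS, 243247 to 313073 in Positive PBS and 196816 to 244803 in Positive LPS libraries, so the sums in the Positive libraries were of the same order as in Input. In whole-tissue RNA of this kind, more or fewer cells of a type and more or less RNA per cell cannot be told apart.

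The stretches of genome just upstream of 4 of the genes are shown because these genes differed most in their answer to LPS: Lcn2 and Steap4 with the largest fold changes in Input, Hspb1 with a different change in each fraction, and S1pr3 with no call. Each runs 5′ to 3′ over the 250 bases before the annotated start, from RefSeq on GRCm38.p6. Capitals mark matches, on either strand, to the motifs searched in the window from 250 bases before to 50 bases after the start.
Lcn2, chr2:32387740-32387989, minus strand: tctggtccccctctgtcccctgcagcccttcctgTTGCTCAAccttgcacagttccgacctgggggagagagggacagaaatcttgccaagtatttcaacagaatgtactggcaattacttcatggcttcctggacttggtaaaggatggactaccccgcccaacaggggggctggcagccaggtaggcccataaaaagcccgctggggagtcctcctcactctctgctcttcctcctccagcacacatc
Steap4, chr5:7960222-7960471, plus strand: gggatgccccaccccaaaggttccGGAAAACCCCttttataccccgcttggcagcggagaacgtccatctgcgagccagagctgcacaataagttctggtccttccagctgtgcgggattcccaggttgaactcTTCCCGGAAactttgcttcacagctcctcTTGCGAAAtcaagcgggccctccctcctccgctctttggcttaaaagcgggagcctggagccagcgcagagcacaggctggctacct
Hspb1, chr5:135887669-135887918, plus strand: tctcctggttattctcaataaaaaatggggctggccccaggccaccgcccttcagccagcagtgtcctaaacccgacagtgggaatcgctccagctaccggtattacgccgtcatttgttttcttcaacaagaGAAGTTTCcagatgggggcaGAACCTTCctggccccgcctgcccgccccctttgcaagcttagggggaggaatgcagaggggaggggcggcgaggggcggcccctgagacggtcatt
S1pr3, chr13:51408368-51408617, plus strand: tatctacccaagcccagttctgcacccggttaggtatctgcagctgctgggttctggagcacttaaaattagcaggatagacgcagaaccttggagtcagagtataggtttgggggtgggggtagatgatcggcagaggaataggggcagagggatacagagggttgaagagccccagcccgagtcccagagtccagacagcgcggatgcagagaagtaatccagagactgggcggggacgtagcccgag

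The capitals in Lcn2 are a match to the C/EBP motif TTGCNNAA, 216 bases before the start. A match to this motif was found in 10.8% of the 32851 promoters of the same length. Steap4 held 3 matches: NF-kB by its usual consensus at 226 bases, the STAT motif TTCNNNGAA at 116 bases and C/EBP at 87 bases before the start. STAT matches were found in 8.30% and NF-kB matches in 5.80% of all promoters. Hspb1 held the heat shock motif GAANNTTC at 117 and at 97 bases before the start, a motif found in 7.86% of promoters. S1pr3 had no match in this window. Of the others, Vim had NF-kB matches at 223 and 141 bases before the start, Gfap a STAT match that begins 2 bases before the start, and Osmr an AP-1 match (TGANTCA, 7.81% of promoters) just after the start. Serpina3n and Cd44 had no match, the CREB motif TGACGTCA (1.79% of promoters) was found in none of the 9 members with a promoter sequence, and Cd109 was not examined. These matches are descriptions of the letters only.

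After LPS, 8 of the 9 genes that passed the filter in a PBS group rose in the Positive fraction and the same 8 in Input, and S1pr3 was the exception in both. With Steap4, 9 of the 10 were called in each. A gene was called when edgeR's quasi-likelihood test gave a Benjamini-Hochberg adjusted p under 0.05 over all tested genes and the log2 fold change was beyond 0.32 in size. Of all tested genes, 19.0% were called higher after LPS in Positive libraries and 7.16% in Input libraries, or 18.3% and 6.58% of those that passed in a PBS group. Of the 14490 genes that passed in a PBS group, 2202 were called lower after LPS in Positive libraries and 779 in Input libraries. The median log2 change of the 9 genes was 1.95 in the Positive fraction and 2.07 in Input, where the medians over all tested genes were 0.01 and 0.00. LPS and PBS libraries did not overlap for 8 of the 10 in the Positive fraction and for 9 in Input, Steap4 among them, against 17.1% and 12.7% of all tested genes higher without overlap. Steap4 entered through the LPS groups alone, so its place in both counts was largely set by the filter. The plot of normalised counts per library shows all 10.

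**Figure D1:**
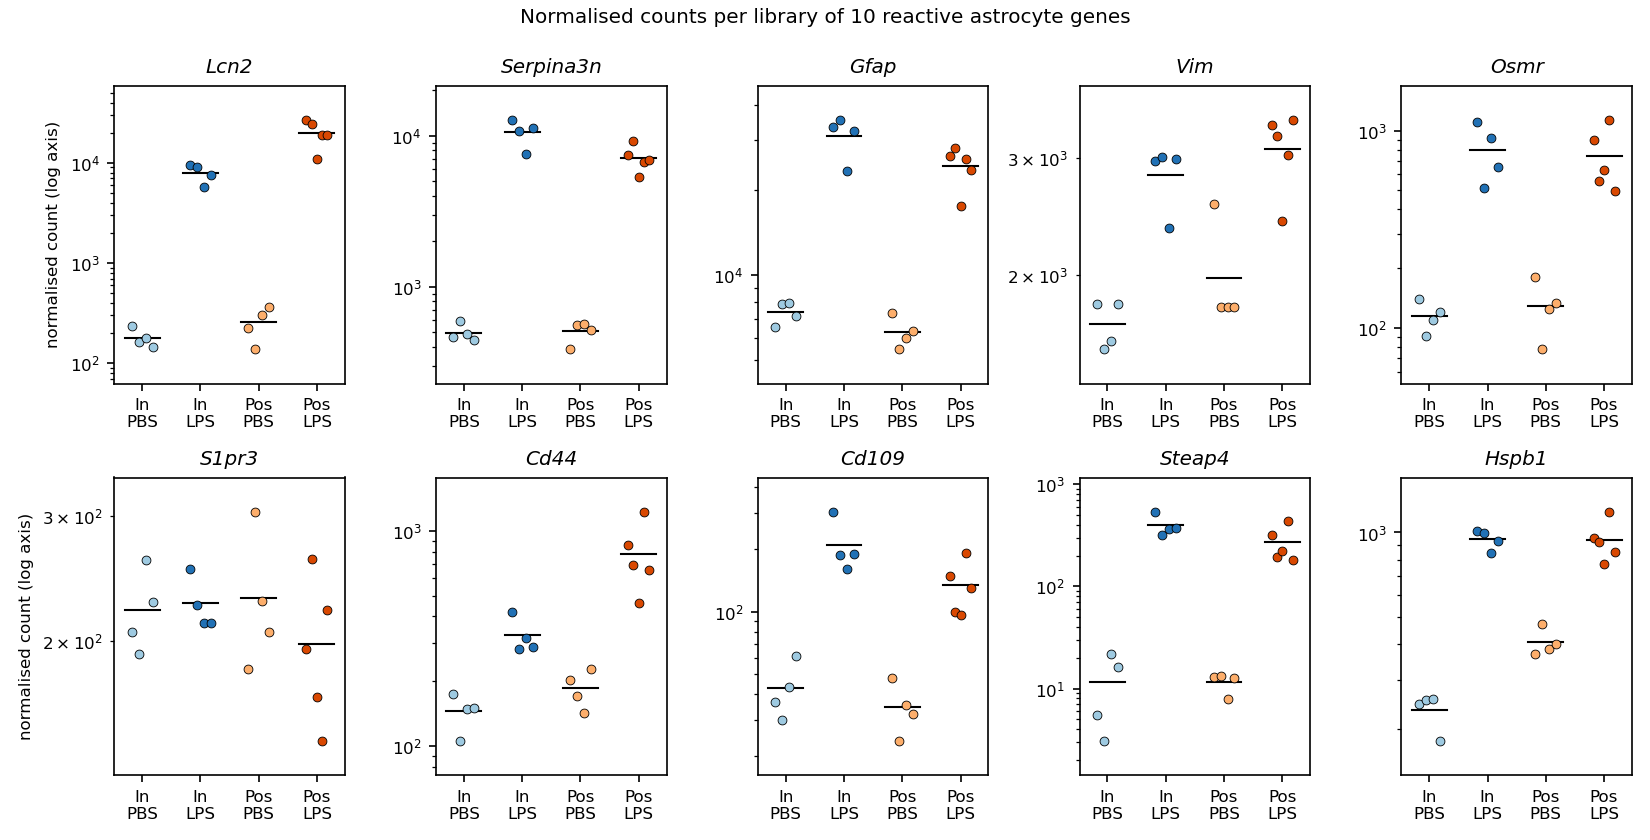
Normalised counts (log axis) of the 10 genes in each library of the 4 groups; In is Input, Pos is Positive, each point is 1 library and the bar is the group mean. LPS libraries lie above PBS libraries in both fractions for every gene except S1pr3, whose 4 groups overlap, and Vim in the Positive fraction, where 1 PBS library at 2558 exceeds 1 LPS library at 2413.

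Lcn2 encodes lipocalin 2, a secreted protein that binds iron-carrying siderophores (chromosome 2, 32384637 to 32387739, minus strand). In Input it had 233, 161, 178 and 144 normalised counts in PBS animals 268, 272, 273 and 506, and 9550, 9136, 5727 and 7561 in LPS animals 266, 267, 270 and 507. In the Positive fraction it had 223, 138, 302 and 364 in the PBS animals, and 26606, 24483, 10976, 19184 and 18896 in LPS animals 266, 267, 270, 271 and 507. The treatments did not overlap in either fraction, and animal 270 was the lowest of the LPS animals in both. Lcn2 rose 44.6-fold in Input (log2 5.48, SE 0.32, edgeR adjusted p = 3.63e-09) and 78.5-fold in the Positive fraction (log2 6.29, SE 0.33, edgeR adjusted p = 2.02e-10). By log2 change it was number 5 of the 14796 tested genes in Input and number 12 in the Positive fraction. Neutrophils also make Lcn2, and of the 4 of 12 neutrophil markers that passed the filter in a PBS group 2 were called higher in each fraction, among them S100a8 by 2.01 in Input and 4.72 in the Positive fraction (log2). A further 3 were called but passed in LPS groups alone, so their higher level after LPS was fixed by the filter. Of all 5, with a fixed direction or not, 3 were called in Input without Input LPS 266 or without Input PBS 506. In females alone S100a8 was not called in Input (1.69, edgeR adjusted p = 0.170). The summed neutrophil markers were 674 to 1076 normalised counts in Input PBS, 891 to 1883 in Input LPS, 1861 to 2189 in Positive PBS and 1096 to 2222 in Positive LPS libraries. Most of the Positive PBS sums was Csf3r (mean 1828), which was higher there than in Input PBS by log2 3.06. Csf3r was called lower after LPS in the Positive fraction (log2 -0.91, edgeR adjusted p = 0.000918). Of the other tested markers, S100a8, S100a9, Cxcr2 and Retnlg were called lower in Positive PBS than in Input PBS, and Ngp and Mmp8 were not called. Ly6g was at 0 in every group, but so was the mural cell marker Acta2, so a 0 here need not mean absence. The part of neutrophil RNA in the Lcn2 result was not tested. Among 3 tested receptors and partners of lipocalin 2, none was called in the Positive fraction. The cell-surface receptor Slc22a17 had log2 changes of -0.06 in Input and -0.10 in the Positive fraction, and Mmp9, a protease that binds lipocalin 2, rose by 1.37 in Input (edgeR adjusted p = 0.000277).

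Serpina3n encodes a secreted serine protease inhibitor of the acute-phase response (chromosome 12, 104406708 to 104414329, plus strand). Its counts in Input were 465, 590, 487 and 445 in PBS animals 268, 272, 273 and 506, and 12623, 10655, 7539 and 11242 in LPS animals 266, 267, 270 and 507. In the Positive fraction they were 387, 557, 568 and 516 in PBS animals, and 7389, 9243, 5305, 6662 and 6856 in LPS animals 266, 267, 270, 271 and 507. Every LPS library was far above every PBS library, and animal 270 was again the lowest of its group in both fractions. Serpina3n rose 21.2-fold in Input (log2 4.40, SE 0.19, edgeR adjusted p = 1.08e-10) and 14.0-fold in the Positive fraction (log2 3.81, SE 0.18, edgeR adjusted p = 7.39e-11). It lies in a cluster of near-identical copies between which reads can be split, so its level is uncertain to that extent. Of 10 other genes of the cluster 2 passed the filter, Serpina3f and Serpina3i, and both did so through the LPS groups alone, so their higher level after LPS was fixed by the filter. Serpina3f had mean normalised counts of 8.78 and 115 in Input PBS and Input LPS libraries and 15.1 and 111 in the Positive ones, and Serpina3i had 4.44 and 31.5, and 4.01 and 29.

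Gfap encodes the main intermediate filament protein of astrocytes (chromosome 11, 102887336 to 102897200, minus strand). In Input it had 6560, 7923, 7953 and 7177 normalised counts in PBS animals 268, 272, 273 and 506, and 33489, 35320, 23431 and 32401 in LPS animals 266, 267, 270 and 507. In the Positive fraction it had 7327, 5461, 6004 and 6316 in PBS animals, and 26411, 28237, 17571, 25713 and 23582 in LPS animals 266, 267, 270, 271 and 507. The treatments were well apart, and animal 270 stood below the other LPS animals in both fractions. The increase was 4.21-fold in Input (log2 2.07, SE 0.15, edgeR adjusted p = 3.61e-08) and 3.87-fold in the Positive fraction (log2 1.95, SE 0.14, edgeR adjusted p = 8.43e-09).

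Vim encodes vimentin, the filament that astrocytes assemble with GFAP when reactive (chromosome 2, 13574311 to 13582826, plus strand). Its Input counts were 1813, 1551, 1597 and 1813 in PBS animals 268, 272, 273 and 506, and 2968, 3006, 2358 and 2986 in LPS animals 266, 267, 270 and 507. Its Positive counts were 2558, 1791, 1791 and 1791 in PBS animals, and 3360, 3233, 2413, 3030 and 3414 in LPS animals 266, 267, 270, 271 and 507. The Input groups were apart, while in the Positive fraction PBS animal 268 exceeded LPS animal 270. Vim had the smallest increase of the 9 genes called, 1.67-fold in Input (log2 0.74, SE 0.13, edgeR adjusted p = 0.00057) and 1.56-fold in the Positive fraction (log2 0.64, SE 0.12, edgeR adjusted p = 0.000434). With libraries of female animals alone, neither passed the threshold (log2 0.61, edgeR adjusted p = 0.0929, and log2 0.49, edgeR adjusted p = 0.0640). That fit kept PBS animals 268 and 506 only.

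Of 10 other intermediate filament genes, none rose in the Positive fraction and 5 fell, where the median log2 change was -0.31. All 10 passed the filter in a PBS group, and of all 14490 genes that did so 2202 were called lower in that fraction. The progenitor filament gene Nes fell by 0.81 (log2) in the Positive fraction (edgeR adjusted p = 0.00549) and the neuronal filament genes Ina and Nefl fell by 0.56 and 0.49. In Input, Nes was the only one of the 10 called, with an increase of 0.73 (edgeR adjusted p = 0.0377). That call was lost with the animal block, with the deposited log2 values (0.72, limma adjusted p = 0.0682), without animal 270, without animals 506 and 507, and in females alone. It was also lost without any 1 of Input LPS 267 and 270 and Input PBS 268, 273 and 506 (lowest log2 0.55). Without Positive LPS 266, 2 of the 10 were called. The difference in the Nes response between fractions was -1.54 (edgeR adjusted p = 0.00495), which was not called in females alone (-1.64, edgeR adjusted p = 0.169). Synm, whose product pairs with vimentin, had log2 changes of 0.81 in Input (edgeR adjusted p = 0.0759) and 0.52 in the Positive fraction (edgeR adjusted p = 0.154).

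Osmr encodes the ligand-specific subunit of the oncostatin M receptor (chromosome 15, 6813577 to 6874313, minus strand). In Input it had 140, 90.7, 110 and 120 normalised counts in PBS animals 268, 272, 273 and 506, and 1110, 512, 916 and 650 in LPS animals 266, 267, 270 and 507. In the Positive fraction it had 182, 78, 125 and 133 in PBS animals, and 896, 553, 629, 1126 and 496 in LPS animals 266, 267, 270, 271 and 507. The treatments did not overlap, but the LPS libraries spread 2.17-fold in Input and 2.27-fold in the Positive fraction. Osmr rose 6.89-fold in Input (log2 2.79, SE 0.30, edgeR adjusted p = 4.22e-06) and 5.72-fold in the Positive fraction (log2 2.52, SE 0.29, edgeR adjusted p = 2.44e-06).

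Of 20 other genes of the gp130 pathway 18 were tested, and 4 rose in Input and 7 in the Positive fraction, with none lower. In Input 2 were called without Input LPS 270 or without Input PBS 273, and in the Positive fraction 4 in females alone. The genes of the receptor subunits that pair with OSMR or share its ligands were not called: log2 changes were 0.18 and 0.17 for Il6st (gp130) and 0.15 and -0.10 for Lifr in Input and Positive fractions. The ligand gene Osm rose by log2 1.04 in the Positive fraction (edgeR adjusted p = 0.00376, in females alone 1.09 with edgeR adjusted p = 0.0689) and was higher in the Positive than the Input fraction by log2 3.19 in PBS and 3.50 in LPS animals. Downstream, the transcription factor gene Stat3 rose by log2 1.10 in Input (edgeR adjusted p = 9.97e-06) and by 1.03 in the Positive fraction (edgeR adjusted p = 3.75e-06). Socs3, the feedback inhibitor of this signal, rose by log2 2.25 in Input and 3.56 in the Positive fraction. The Socs3 increase was larger in the Positive fraction by 1.31 (edgeR adjusted p = 0.0104), which was not called without animals 506 and 507 (1.29, edgeR adjusted p = 0.0929) or in females alone (1.09, edgeR adjusted p = 0.274). Il6ra, the interleukin 6 receptor gene, rose in Input alone by the test (log2 0.86, edgeR adjusted p = 0.0190), and Pim1, a kinase gene induced by STATs, in the Positive fraction alone (log2 1.43, edgeR adjusted p = 4.12e-05). The differences between fractions for Il6ra (-0.69, edgeR adjusted p = 0.226) and Pim1 (0.90, edgeR adjusted p = 0.0873) were not called. The Il6ra call was lost with the animal block (0.99, limma adjusted p = 0.0594), without Input LPS 270 (0.78) and without Input PBS 273 (0.75). It was also lost without animals 506 and 507 (0.92) and in females alone (0.77).

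**Figure D2:**
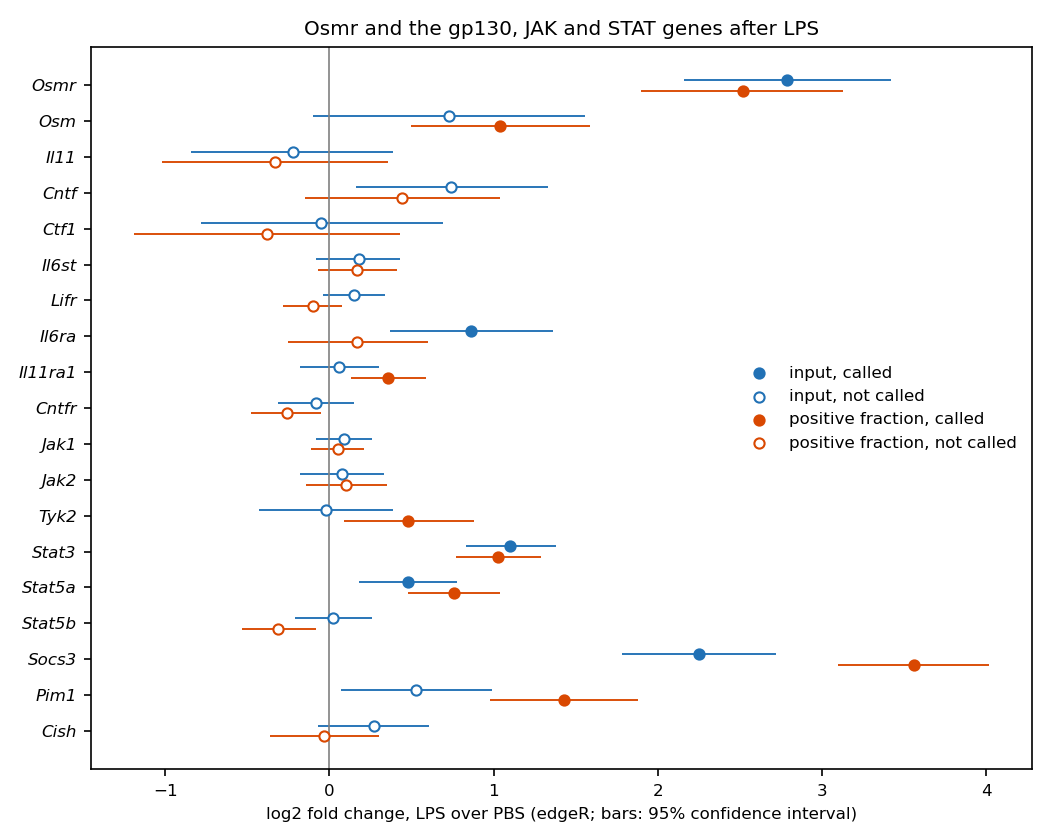
Log2 fold change of LPS over PBS, with 95% confidence intervals, for Osmr and the 18 tested genes of the gp130 pathway, in Input (blue) and the Positive fraction (orange); filled points were called. Osmr (2.79 and 2.52), Socs3 and Stat3 lie to the right of 0 in both fractions, whereas the intervals of Il6st and Lifr include 0 in both.

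S1pr3, a G protein-coupled receptor for sphingosine-1-phosphate (chromosome 13, 51408618 to 51422797, plus strand), was the one member that was not called. In Input it had 206, 192, 260 and 227 normalised counts in PBS animals 268, 272, 273 and 506, and 253, 225, 212 and 212 in LPS animals 266, 267, 270 and 507. In the Positive fraction it had 183, 304, 228 and 206 in PBS animals, and 195, 261, 167, 145 and 221 in LPS animals 266, 267, 270, 271 and 507. All 4 groups overlapped. The log2 change was 0.03 in Input (95% confidence interval -0.35 to 0.41, edgeR adjusted p = 0.937) and -0.22 in the Positive fraction (-0.58 to 0.15, edgeR adjusted p = 0.330). Increases as large as those of the other 9 genes lie outside these intervals.

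Of 11 other tested genes of the sphingosine-1-phosphate pathway, 2 rose and 2 fell in Input, and 4 rose and 3 fell in the Positive fraction. The receptor gene S1pr1 fell by 0.73 (log2) in Input (edgeR adjusted p = 1.8e-05) and by 0.92 in the Positive fraction (edgeR adjusted p = 1.71e-07). The exporter gene Spns2 rose by 0.75 and 0.67 (edgeR adjusted p = 0.00659 and 0.00403), and the kinase gene Sphk1, whose product makes the ligand, rose by 1.82 in the Positive fraction (edgeR adjusted p = 7.26e-05). Both Spns2 calls were lost in females alone (edgeR adjusted p = 0.149 and 0.0733).

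Cd44 encodes a surface receptor for hyaluronan (chromosome 2, 102811142 to 102901665, minus strand). Its Input counts were 175, 106, 148 and 151 in PBS animals 268, 272, 273 and 506, and 420, 282, 318 and 288 in LPS animals 266, 267, 270 and 507. Its Positive counts were 202, 171, 142 and 228 in PBS animals, and 861, 694, 464, 1223 and 655 in LPS animals 266, 267, 270, 271 and 507. The treatments were apart in both fractions, with animal 271 highest and animal 270 lowest among the Positive LPS libraries. Cd44 rose 2.25-fold in Input (log2 1.17, SE 0.25, edgeR adjusted p = 0.00302) and 4.19-fold in the Positive fraction (log2 2.07, SE 0.24, edgeR adjusted p = 2.54e-06). In females alone the Input value was not called (log2 1.06, edgeR adjusted p = 0.117). Of 12 tested genes for hyaluronan metabolism and CD44 partners, 3 rose in Input and the same 3 in the Positive fraction, where 3 others fell. Among those that fell, Lyve1 had the largest change (log2 -2.39, edgeR adjusted p = 1.6e-05). Those that rose were the membrane-to-actin linkers Msn (log2 1.21 in Input and 1.20 in the Positive fraction) and Ezr (0.81 and 1.01) and the ligand gene Spp1 (1.18 and 1.02). The Ezr call in Input was lost without any 1 of Input LPS 266 and 270 and Input PBS 272 and 273 (lowest log2 0.62). It was also lost without animal 270, without animals 506 and 507, and in females alone.

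Cd109 encodes a membrane-anchored protein of the alpha-2-macroglobulin family (chromosome 9, 78615546 to 78716260, plus strand). Its Input counts were 36.4, 29.9, 43.2 and 61 in PBS animals 268, 272, 273 and 506, and 303, 187, 161 and 189 in LPS animals 266, 267, 270 and 507. Its Positive counts were 47.6, 23.8, 35.3 and 31.9 in PBS animals, and 149, 99.4, 96.4, 192 and 130 in LPS animals 266, 267, 270, 271 and 507. The treatments did not overlap. Cd109 rose 4.90-fold in Input (log2 2.29, SE 0.29, edgeR adjusted p = 2.2e-05) and 3.84-fold in the Positive fraction (log2 1.94, SE 0.29, edgeR adjusted p = 3.47e-05).

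Steap4 encodes a metalloreductase that reduces iron and copper (chromosome 5, 7960472 to 7982213, plus strand). It was the lowest of the 10 per kilobase of exon in PBS animals, with 5.46, 3.09, 21.8 and 16.2 normalised counts in Input and 13.1, 13.3, 7.83 and 12.7 in the Positive fraction of animals 268, 272, 273 and 506. After LPS it had 537, 317, 362 and 372 in Input of animals 266, 267, 270 and 507, and 321, 192, 223, 435 and 180 in the Positive fraction of animals 266, 267, 270, 271 and 507. The treatments were far apart, although the PBS counts of Input varied 7.06-fold among themselves. Since no PBS group reached the filter, the direction was fixed and only its size is informative. Steap4 was 33.5-fold higher in Input (log2 5.07, SE 0.41, edgeR adjusted p = 1.87e-07) and 22.5-fold in the Positive fraction (log2 4.49, SE 0.41, edgeR adjusted p = 1.43e-07). Of the 3 other STEAP genes, Steap2 and Steap3 were not called in either fraction. Steap1, at 9.34 and 18.4 mean normalised counts in Positive PBS and Positive LPS libraries, rose by log2 0.97 in that fraction (edgeR adjusted p = 0.0225). The Steap1 call was lost with the animal block (0.90, limma adjusted p = 0.0796). It was also lost without any 1 of Positive LPS 266 and 267 and Positive PBS 272 and 273 (lowest log2 0.83). In females alone (0.64) and with only the groups compared in the fit (0.97) Steap1 was not called either.

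Hspb1 encodes a small heat shock protein that acts as a chaperone of filaments (chromosome 5, 135887919 to 135889563, plus strand). Its Input counts were 245, 253, 256 and 182 in PBS animals 268, 272, 273 and 506, and 1013, 997, 847 and 929 in LPS animals 266, 267, 270 and 507. Its Positive counts were 370, 474, 385 and 403 in PBS animals, and 954, 925, 772, 1184 and 854 in LPS animals 266, 267, 270, 271 and 507. The Positive libraries began higher than Input in PBS animals and lay in the same range in LPS animals. Hspb1 rose 4.05-fold in Input (log2 2.02, SE 0.14, edgeR adjusted p = 3.21e-08) and 2.30-fold in the Positive fraction (log2 1.20, SE 0.13, edgeR adjusted p = 1.24e-06). Of 12 tested other heat shock genes, 2 rose and 2 fell in Input, and 2 rose and 3 fell in the Positive fraction, where 3 were called without Positive PBS 272 or 273 and up to 7 without another library. The small heat shock gene Hspb6 rose by log2 1.32 and 1.29 in the 2 fractions (edgeR adjusted p = 4.48e-06 and 9.06e-07), and Cryab, another small heat shock gene, fell by 0.95 in Input (edgeR adjusted p = 0.000263). Cryab is also abundant in oligodendrocytes, and 8 of 10 oligodendrocyte markers were called lower after LPS in Input (median log2 -0.63), or 4 without Input LPS 266, Input LPS 507 or Input PBS 272 and 5 without Input PBS 273. Their sums were 117069 to 181183 in Input PBS and 74914 to 106387 in Input LPS libraries, and their part in the results was not tested.

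**Figure D3:**
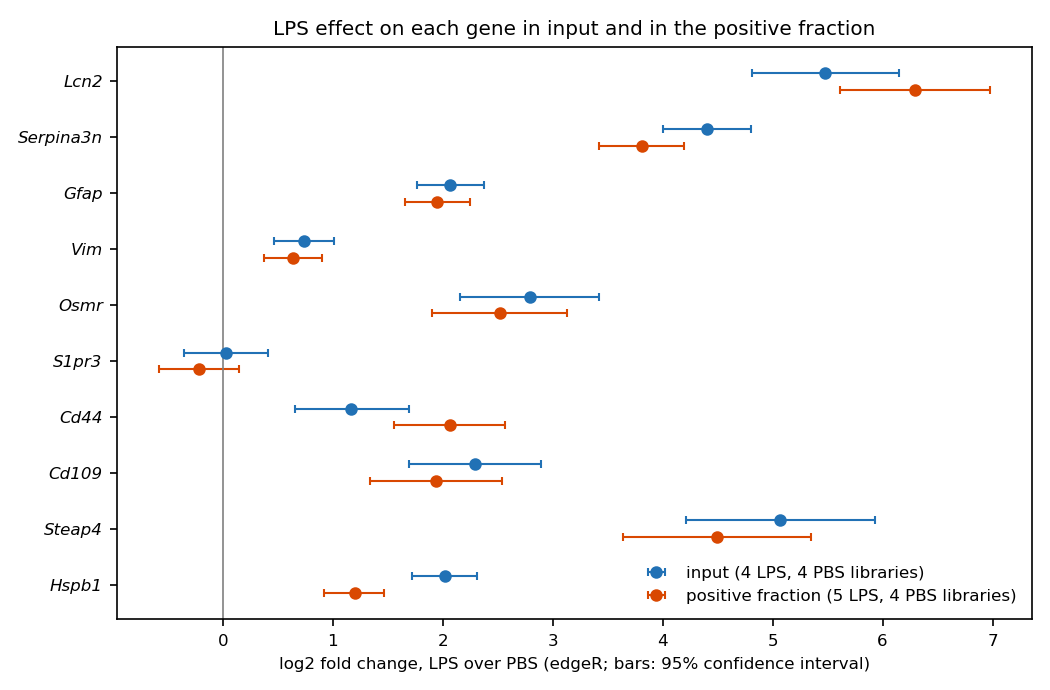
Log2 fold change of LPS over PBS with 95% confidence intervals for the 10 genes, in Input and in the Positive fraction. The intervals of S1pr3 include 0 in both fractions, the other intervals lie above 0, and Lcn2 (5.48 and 6.29) and Steap4 (5.07 and 4.49) lie farthest to the right.

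The difference of the LPS response between the fractions was called for Hspb1 alone, against 1.43% of all tested genes called lower and 5.45% called higher. The Hspb1 response was smaller in Positive than in Input libraries (log2 difference -0.82, SE 0.19, 95% confidence interval -1.21 to -0.43, edgeR adjusted p = 0.0111). It was not called without animals 506 and 507 (-0.70, edgeR adjusted p = 0.122) or in females alone (-0.83, edgeR adjusted p = 0.212). With the animal as a block, a fit in which the unpaired Positive library of animal 271 adds nothing to this difference, 4 members were called. These were Hspb1 (-0.92, edgeR adjusted p = 0.000518), Serpina3n (-0.57, edgeR adjusted p = 0.0163), Cd44 (0.66, edgeR adjusted p = 0.0450) and Lcn2 (0.82, edgeR adjusted p = 0.0469). Without the block the last 3 were -0.60 (edgeR adjusted p = 0.145), 0.89 (edgeR adjusted p = 0.130) and 0.82 (edgeR adjusted p = 0.238). Animal 270 changed 2 of these calls: without Input LPS 270 Serpina3n was called (-0.73, edgeR adjusted p = 0.0462), and without Positive LPS 270 Cd44 was (1.04, edgeR adjusted p = 0.0360). Leaving out both libraries of animal 270 gave 2 called members, with Serpina3n at -0.64 (edgeR adjusted p = 0.0466).

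Levels in the fractions were then compared within each treatment, to show where these transcripts sat relative to the microglial pull-down. In PBS animals 1 of the 10 was called, Hspb1, which was 1.75-fold higher in the Positive fraction (log2 0.80, SE 0.14, edgeR adjusted p = 0.000126). Among all tested genes, the share called in PBS animals was 21.1% for higher and 18.8% for lower in the pull-down. Hspb1 was higher in the Positive library of 4 of 4 PBS animals, by log2 0.60, 0.91, 0.59 and 1.15 in animals 268, 272, 273 and 506. The other 9 members had log2 ratios between -0.30 for Cd109 and 0.51 for Lcn2. The Lcn2 ratio varied among the 4 animals (-0.06, -0.22, 0.76 and 1.34), and without Positive PBS 272 it was called (0.72, edgeR adjusted p = 0.0400). For Steap4, at a few counts in PBS animals, the 95% confidence interval ran from -1.05 to 1.09.

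In LPS animals 5 of the 10 were called, with 2 higher and 3 lower in the pull-down, against 27.7% and 25.8% of all tested genes. Lcn2 was 2.51-fold higher in the Positive fraction (log2 1.33, SE 0.25, edgeR adjusted p = 0.000204) and Cd44 2.38-fold higher (95% confidence interval 0.77 to 1.73 in log2, edgeR adjusted p = 0.000136). Neither gene overlapped between fractions, where 25.2% of all tested genes were higher without overlap. Within the 4 paired animals 266, 267, 270 and 507, Lcn2 was higher by log2 1.48, 1.42, 0.94 and 1.32, and Cd44 by 1.03, 1.30, 0.55 and 1.18. These are all in 1 direction, with animal 270 the smallest in both.

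Serpina3n (log2 -0.57, SE 0.16, edgeR adjusted p = 0.00418), Gfap (-0.36, SE 0.13, edgeR adjusted p = 0.0259) and Cd109 (-0.66, SE 0.25, edgeR adjusted p = 0.0304) were lower in the Positive fraction of LPS animals. The ranges of the fractions overlapped for all 3, but within animals each was lower in the Positive library of 4 of 4. Gfap was lower by a similar amount in each (-0.34, -0.32, -0.42 and -0.46), Serpina3n by -0.77, -0.21, -0.51 and -0.71, and Cd109 by -1.02, -0.91, -0.74 and -0.54. The Gfap call was lost with all 18 libraries (-0.38, edgeR adjusted p = 0.0899), with only the groups compared in the fit (-0.36, edgeR adjusted p = 0.0598), and without Input LPS 266 (-0.32), 267 (-0.29) or 507 (-0.34) or Positive LPS 270 (-0.26), and the Cd109 call without Input LPS 266 (-0.43) or Positive LPS 267 (-0.57), 270 (-0.56) or 507 (-0.64). The Gfap and Cd109 calls were also lost without animals 506 and 507 and in females alone. Steap4 was not called (-0.56, SE 0.29, edgeR adjusted p = 0.108) but was with the animal block (-0.80, edgeR adjusted p = 0.00261), a fit in which the Positive library of animal 271 adds nothing to this contrast, and without Positive LPS 271 (-0.80, edgeR adjusted p = 0.0228). It was lower in the Positive library of all 4 paired animals. Vim, Osmr, S1pr3 and Hspb1 had log2 ratios between -0.19 and 0.13 and were not called. Within animals, Vim was higher in the Positive library of 4 of 4 (0.03 to 0.19) and Hspb1 lower in 4 of 4 (-0.13 to -0.09).

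**Figure D4:**
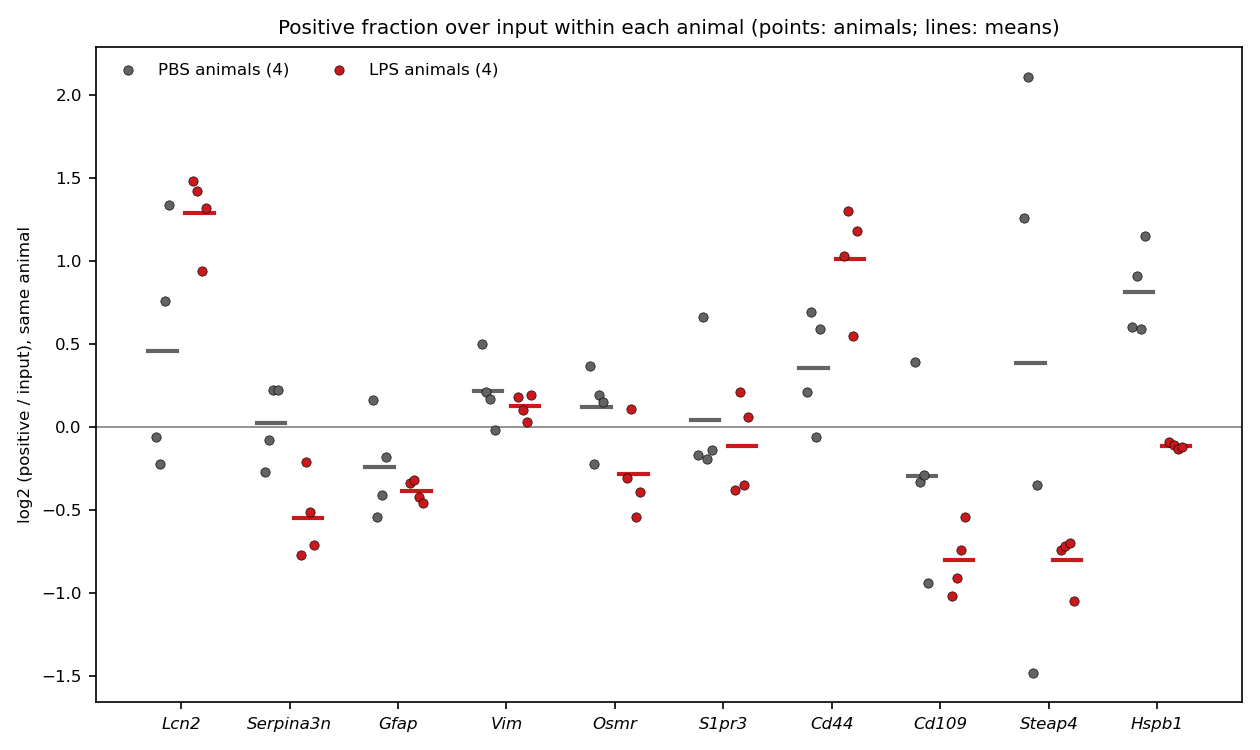
Log2 ratio of Positive over Input normalised counts within each animal, for the 10 genes; each point is 1 of 4 PBS animals (grey) or 1 of the 4 LPS animals with both libraries (red), and the line is the mean. In LPS animals all points of Lcn2 (0.94 to 1.48) and Cd44 (0.55 to 1.30) lie above 0 and so do those of Vim (0.03 to 0.19), while all points of Serpina3n, Gfap, Cd109, Steap4 and Hspb1 lie below it, and in PBS animals all points of Hspb1 (0.59 to 1.15) lie above 0.

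Set beside marker lists, the 10 genes had a median log2 ratio of Positive over Input of 0.11 in PBS and -0.15 in LPS animals, where the medians over all tested genes were 0.00 and -0.03. Microglia markers lay at 4.29 and 4.09 and homeostatic astrocyte markers at -0.38 and -0.61. The 14 endothelial markers had a median of 1.17 in PBS animals and 0.53 after LPS, with 12 and 8 called higher and none lower, or 5 after LPS without Positive LPS 267. Their sums were 6660 to 8421 in Input PBS, 8377 to 11162 in Input LPS, 14608 to 19602 in Positive PBS and 11752 to 18361 in Positive LPS libraries. Oligodendrocyte markers had medians of -2.19 and -1.78, all 10 called lower in both treatments, and neuron markers 0.11 and -0.08. The part of endothelial and neutrophil RNA in the ratios of Lcn2 and Cd44 was not tested.

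**Figure D5:**
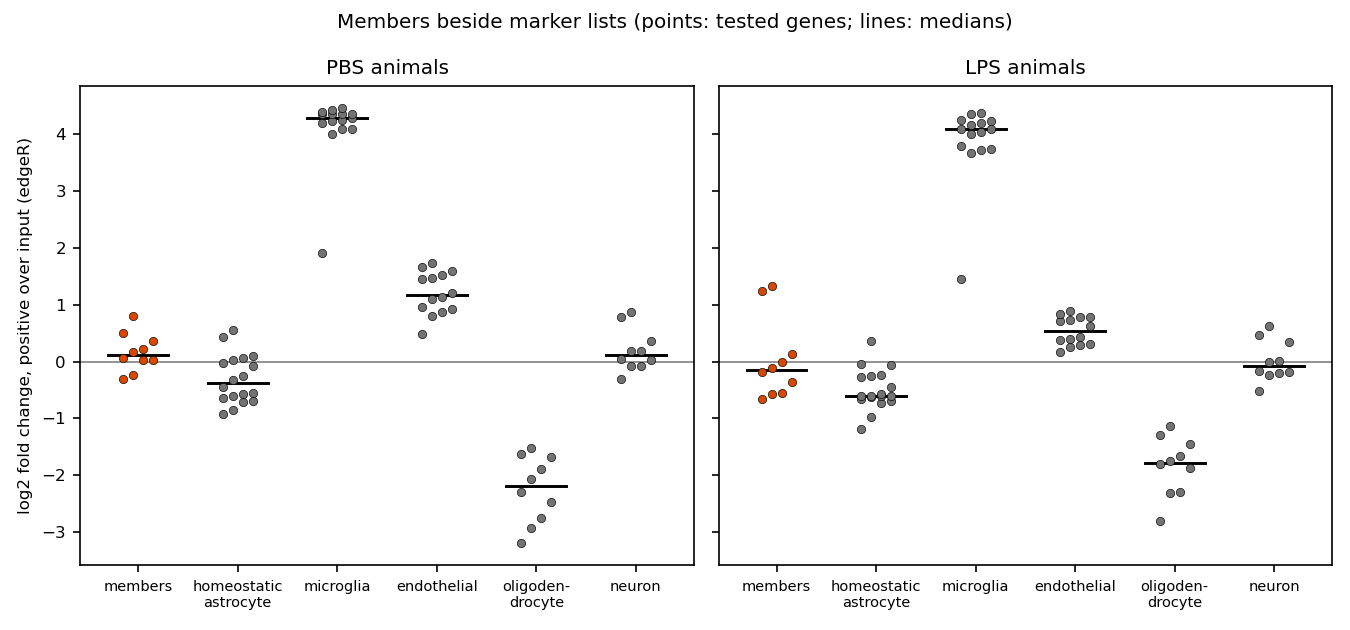
Log2 fold change of Positive over Input (vertical axis) in PBS animals (left) and LPS animals (right), for the 10 genes (orange, the column named members) and for the tested genes of 5 marker lists (grey); each point is 1 gene and the line is the median. The 10 genes lie between -0.30 and 0.80 in PBS animals and between -0.66 and 1.33 in LPS animals, below the microglia markers (1.92 to 4.47 and 1.46 to 4.37) and above the oligodendrocyte markers (-3.20 to -1.53 and -2.81 to -1.14).

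Homeostatic astrocyte markers moved in both directions after LPS. Their median log2 change after LPS was -0.15 in Input (3 rose, 3 fell) and -0.26 in the Positive fraction (2 rose, 5 fell, with 12 called in females alone). The organic anion transporter gene Slco1c1 fell by 1.49 (log2) in Input and by 2.59 in the Positive fraction (edgeR adjusted p = 2.72e-06 and 5.47e-10). Fabp7, a fatty acid binding protein gene of astrocytes and progenitors, fell by 1.60 and 1.94 (edgeR adjusted p = 0.00173 and 6.43e-05). Sox9, a transcription factor gene of the astrocyte lineage, rose by 0.56 in both fractions.

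Other genes named as reactive astrocyte markers rose as well. Of 4 further pan-reactive genes, the ferroxidase gene Cp (ceruloplasmin) rose by log2 2.62 in Input and 3.18 in the Positive fraction, and the asparaginase gene Aspg by 2.63 and 2.25, with an edgeR adjusted p of at most 1.15e-05. The other 2 passed the filter in LPS groups alone, so their direction was fixed: Timp1, an inhibitor of matrix metalloproteinases, was higher by 4.66 and 4.65, and the chemokine gene Cxcl10 by 5.12 and 6.10. In LPS animals Cp was higher in the Positive fraction by log2 1.30, like Lcn2, and Aspg was lower by -0.80, like Serpina3n (edgeR adjusted p = 0.000636 and 0.00838). In females alone the Aspg ratio was not called (-0.75, edgeR adjusted p = 0.0837).

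Of 12 genes that the literature labels A1, all rose in Input and 10 in the Positive fraction, among them the interferon-induced GTPase genes Gbp2 (log2 4.27 and 3.35) and Iigp1 (3.70 and 2.83) and the proteoglycan gene Srgn (1.81 and 3.13). Of 9 further genes labelled A2 that passed the filter in a PBS group, 4 rose in Input and 6 in the Positive fraction, where 1 fell. Tgm1 rose in both (log2 3.85 and 2.47). The pentraxin gene Ptx3 (3.33 and 3.90) and the transporter gene Slc10a6 (3.76 and 2.29) passed in LPS groups alone. Several of these genes are used by other cells: the A1 list had a median log2 ratio of Positive over Input of 1.90 in PBS animals, with 8 of 12 called higher.

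The order of the 10 genes by level was compared per kilobase of merged exon. In Input PBS libraries Gfap led with a mean of 1818 normalised counts per kilobase, ahead of Vim at 772. Serpina3n (241), Hspb1 (227) and Lcn2 (196) followed with overlapping ranges, then S1pr3 at 49.6, Cd44 (25.7) and Osmr (21.0) with overlapping ranges, and last Cd109 (7.27) and Steap4 (3.69). In Input LPS libraries Lcn2 (8736), Gfap (7652) and Serpina3n (5094) led, and each overlapped its neighbour in this order. In Positive LPS libraries Lcn2 stood alone at the top with 21890 per kilobase, ahead of Gfap (5968) and Serpina3n (3436). S1pr3, number 6 of the 10 in Input PBS libraries, was number 9 in Input LPS libraries at 50.6, where its range overlapped those of Cd44 (57.9) and Cd109 (35.8).

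The genes whose 4 group means were most like those of each member were sought among 13164 genes with at least 100 normalised counts in some group, by the root mean square difference of log2 means centred on their own average. Nearest to Lcn2 were Csf3 (0.31), Cxcl10 (0.41) and Cxcl1 (0.43), which encode secreted cytokines and chemokines. Nearest to Serpina3n and to Steap4 was Timp1 (0.31 and 0.29), and these members lay 0.38 from each other. Gfap and Cd109 lay 0.12 apart and shared their nearest genes Rhoj, Slc43a3 and Pla1a (at most 0.19). Cd44 lay nearest to Rbm3 (0.08), Sbno2 (0.13) and Plscr1 (0.14), each with a larger LPS increase in the Positive fraction than in Input, such as 2.22 against 1.07 for Rbm3. Hspb1 lay nearest to Tgtp1 (0.10), Gpx3 (0.15) and Cdkn1a (0.17), and Vim to S100a13 (0.01). These distances are descriptions over 4 means and say nothing of shared control.

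Animals also differed within the LPS group. Animal 270 was the lowest for 6 of the 10 genes in Input and for 7 of the 10 in the Positive fraction, with a median log2 distance of -0.21 and -0.39 from the group mean. Animal 266 was highest for 8 of the 10 in Input (median 0.26), and animal 271, whose Input library was not usable, was highest for 5 of the 10 in the Positive fraction (median 0.21). Animal 270 was above every PBS animal for all called members except Vim in the Positive fraction.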

How the data were processed

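RNA of 9 mice was sequenced as paired Input and Positive (TRAP) libraries, 18 in all. The authors made strand-specific poly(A) libraries, aligned reads to mm10 in Strand NGS, deposited estimated counts per gene (81.7% of the values above 0 were not whole numbers) and beside them log2 values after DESeq scaling, which served as an alternative. Here the counts were rounded, the nearly empty Input library of animal 271 was left out, and libraries were scaled by medians of ratios over 15871 genes (size factors 0.766 to 1.32). Genes with over 20 normalised counts in every library of at least 1 group were kept (14796 of 21717 with a count). edgeR 4.0.16 quasi-likelihood tests in R 4.3.3 used 1 mean per group over 17 libraries (13 residual degrees of freedom), where the study's methods used a 2-way analysis of variance. Calls needed a Benjamini-Hochberg adjusted p under 0.05 and a fold change over 1.25. The scripts were tested on simulated data.

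Input and Positive libraries of an animal carry the same number and come from the same homogenate. Their deviations from the group means correlated in all 8 pairs (0.162 to 0.519), so the animal was used as a block in an alternative. For the LPS effects this block was a correlation within animals in limma (consensus 0.446). Those values therefore change the test as well as the block. Other alternatives were TMM scaling, DESeq2 1.42.0, limma 3.58.1 on the deposited log2 values, no filter, edgeR's filterByExpr filter and sex as a covariate. Further ones were all 18 libraries, fits of the groups compared only, females only, and leaving out each library, or animals 506 and 507. Animals 267, 272 and 273 were male, so the fits of females only kept PBS animals 268 and 506 alone. A call lost in these smaller fits does not show a dependence on sex. With sex as a covariate over all 17 libraries, no call of a member changed. Leaving out animal 270 was chosen after seeing the data. Floors of single libraries cover counting error only, while p-values and 95% confidence intervals of the main fit rest on the spread between libraries. That fit treats the 17 libraries as independent, so its comparisons of fractions do not use the pairing within animals.

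The 10 genes and all gene lists were chosen with earlier results of these data known. Beside the 10, called genes with large log2 changes and a mean of at least 100 normalised counts were named, as a rule up to 4 per list. Not every gene that met this was named. Any gene of the gp130, other pan-reactive, intermediate filament, sphingosine-1-phosphate and STEAP lists could also be named. Serpina3i and Slc22a17 were named after their values were seen. Lists were described by counts and medians, with no set test. A gene of the gp130 list is not reported here and was left out of its counts.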

Additional observations from a re-analysis of the deposited data

Results flagged for a closer look

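Of 40 groups of 4 or 5 libraries examined (10 genes in 4 groups), 4 held a library far from the others by Dixon's criterion at the 95% level, where chance gives about 1 in 20. Vim in Input LPS was lowest in animal 270 (2358 normalised counts), the animal that was also lowest for 5 of the other members in that group. Vim in Positive PBS was highest in animal 268 (2558), while the other 3 libraries lay at 1791. Steap4 in Positive PBS was lowest in animal 273 (7.83), a value near the floor of the counts. Hspb1 in Input PBS was lowest in animal 506 (182). In addition, the response of Hspb1 to LPS differed between the fractions by edgeR's test of the difference itself (log2 -0.82, Positive minus Input, adjusted p = 0.0111).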

How the results depend on the processing

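Across 29 alternatives, the calls of members after LPS changed in females only, where Vim was lost in both fractions and Cd44 in Input. In PBS animals the number called between fractions ranged from 1 to 2 when 1 library was left out. In LPS animals it ranged from 3 to 6, and was 3 without animals 506 and 507 and in females only. For the difference of the LPS response it ranged from 1 to 2, and was 2 without animal 270 (an alternative chosen after seeing the data), 0 without animals 506 and 507 and in females only, and 4 with the replicate block (the animal). Over all genes, 1916 differences were called with the block, 323 without animals 506 and 507 and 77 in females only, against 1018.

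The values that turned in sign were all near 0 and none was called. For S1pr3 after LPS in Input, the block gave -0.02 and leaving out 1 library -0.03 to 0.12. Between fractions in PBS animals, all 18 libraries gave -0.10 for Serpina3n, -0.07 for S1pr3 and -0.11 for Steap4, the deposited log2 values -0.11 for Serpina3n, -0.01 for Osmr and -0.09 for S1pr3, females only -0.01 for Serpina3n and -0.15 for S1pr3, and omission of animals 506 and 507 -0.03 for Serpina3n. Leaving out 1 library there gave -0.03 to 0.14 for Serpina3n, -0.05 to 0.35 for Osmr, -0.11 to 0.16 for S1pr3 and -0.28 to 0.51 for Steap4. In LPS animals, Osmr was 0.02 without animal 270 and -0.31 to 0.09 without 1 library, and Hspb1 was 0.00 with TMM scaling, 0.01 without animals 506 and 507, 0.02 in females only and -0.11 to 0.05 without 1 library. The Vim difference ran from -0.18 to 0.04. The causes were not tested. Among the gene lists in females only, 2 rather than 5 other intermediate filament genes and 3 rather than 5 heat shock genes were called in the Positive fraction, and 1 rather than 4 sphingosine-1-phosphate genes in Input. The block changed no other call of a member than those given beside the results. Few animals, Steap4 and Cd109 at 61 normalised counts or fewer in PBS animals, and the missing Input library of animal 271 limit the comparison of fractions.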
